A study of Mus musculus with 3 samples.

Results

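Broad H3K4me3 domains are the H3K4me3 peaks of mouse alveolar type II (AT2) cells that are at least 3500 bp long and lie on chromosomes 1 to 19 or X. They were chosen by that length alone, from the H3K4me3 peak list, and 357 of 15122 H3K4me3 peaks (2.36%) met it. They cover 1627.9 kb, which is 7.98% of the length under H3K4me3. The length and height of their H3K4me3 are therefore descriptions, and no test of them is given. ETV5 positions and gene annotation played no part in the choice.

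The study profiled ETV5 and H3K4me3 by chromatin immunoprecipitation and sequencing (ChIP-seq) in AT2 cells isolated from C57BL/6 mice aged 10 to 12 weeks, with no genetic change or treatment in the labels. There was 1 ETV5 library and 1 H3K4me3 library, and 1 input library (sheared chromatin with no antibody) is described beside them. Each protein or mark thus has no replicate, the number of mice pooled was not stated in the labels, and no p-value can be given. Intervals below cover counting error only. The ETV5 list rests on 5715049 tags and the H3K4me3 list on 34907608 tags, so the ETV5 list is the shallower one.

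H3K4me3 is trimethylation of lysine 4 of histone H3, a mark laid down around the start of transcribed genes by SET1 and MLL methyltransferases. At most active promoters it flanks the start as a short peak. In many cell types the widest domains lie over genes that set the identity of that cell, and they often run into the gene body. AT2 cells make and recycle pulmonary surfactant and renew the alveolar epithelium. ETV5 is an ETS-family transcription factor of the PEA3 subgroup activated through FGF and ERK signals in lung epithelium, and ETS proteins bind DNA around a GGAA core.

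The promoters below are examples of sequence under the broad domains, and they were picked with the ETV5 values known. They do not show the range among domains with or without an ETV5 summit, and no comparison of those groups rests on them. Each is the 250 bases before a RefSeq start on GRCm38.p6, read 5′ to 3′ on the strand of the gene, and capitals mark every CG dinucleotide. The 4 shown first belong to genes whose domain held an ETV5 summit. Bcl6 encodes a transcriptional repressor, Spred1 an inhibitor of RAS to ERK signalling, Nkx2-1 the homeodomain factor of lung epithelium, and Sftpb surfactant protein B.
Bcl6 (chr16:23988853-23989102, - strand): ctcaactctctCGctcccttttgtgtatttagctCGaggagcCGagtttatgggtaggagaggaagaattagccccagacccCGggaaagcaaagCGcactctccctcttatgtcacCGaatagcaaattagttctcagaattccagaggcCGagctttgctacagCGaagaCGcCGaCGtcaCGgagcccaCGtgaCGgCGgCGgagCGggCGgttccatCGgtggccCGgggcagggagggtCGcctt
Spred1 (chr2:117120821-117121070, + strand): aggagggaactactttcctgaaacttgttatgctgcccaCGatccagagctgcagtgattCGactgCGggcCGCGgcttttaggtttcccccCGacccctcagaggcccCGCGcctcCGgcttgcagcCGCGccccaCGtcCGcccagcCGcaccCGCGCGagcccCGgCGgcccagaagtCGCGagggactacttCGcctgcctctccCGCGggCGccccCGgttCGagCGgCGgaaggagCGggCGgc
Nkx2-1 (chr12:56536909-56537158, - strand): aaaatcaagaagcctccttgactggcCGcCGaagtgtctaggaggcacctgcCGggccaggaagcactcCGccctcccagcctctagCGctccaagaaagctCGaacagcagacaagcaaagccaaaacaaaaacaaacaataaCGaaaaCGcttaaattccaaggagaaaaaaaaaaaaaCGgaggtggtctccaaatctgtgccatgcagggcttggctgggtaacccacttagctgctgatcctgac
Sftpb (chr6:72304360-72304609, + strand): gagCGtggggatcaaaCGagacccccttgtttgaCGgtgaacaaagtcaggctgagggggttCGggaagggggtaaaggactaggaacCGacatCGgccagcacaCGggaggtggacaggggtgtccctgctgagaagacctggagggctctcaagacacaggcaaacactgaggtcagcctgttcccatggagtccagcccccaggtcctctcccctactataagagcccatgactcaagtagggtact

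The other 4 belong to AT2 marker genes whose domain held none. Sftpa1 encodes surfactant protein A, Lamp3 a lamellar body membrane protein, Lyz2 a lysozyme, and Hc complement component C5.
Sftpa1 (chr14:41131538-41131787, + strand): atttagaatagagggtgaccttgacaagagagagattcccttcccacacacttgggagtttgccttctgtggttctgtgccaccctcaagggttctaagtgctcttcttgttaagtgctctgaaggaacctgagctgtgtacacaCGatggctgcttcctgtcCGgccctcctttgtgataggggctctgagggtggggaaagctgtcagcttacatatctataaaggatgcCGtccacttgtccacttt
Lamp3 (chr16:19706366-19706615, - strand): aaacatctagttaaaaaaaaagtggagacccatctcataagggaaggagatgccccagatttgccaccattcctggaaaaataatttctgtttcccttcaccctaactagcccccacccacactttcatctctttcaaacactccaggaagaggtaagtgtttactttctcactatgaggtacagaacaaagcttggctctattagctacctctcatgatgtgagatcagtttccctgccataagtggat
Lyz2 (chr10:117282273-117282522, - strand): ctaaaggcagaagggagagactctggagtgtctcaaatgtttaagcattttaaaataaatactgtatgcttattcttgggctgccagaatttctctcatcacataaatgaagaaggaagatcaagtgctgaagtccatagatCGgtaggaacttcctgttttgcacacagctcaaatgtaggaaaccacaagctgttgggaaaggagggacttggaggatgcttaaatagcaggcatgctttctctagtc
Hc (chr2:35061413-35061662, - strand): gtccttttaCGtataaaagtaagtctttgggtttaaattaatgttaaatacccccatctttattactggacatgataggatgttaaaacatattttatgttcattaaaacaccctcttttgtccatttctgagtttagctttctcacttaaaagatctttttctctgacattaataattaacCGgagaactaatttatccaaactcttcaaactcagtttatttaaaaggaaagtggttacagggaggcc

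These stretches differed in CG content. CG occurred 21 times upstream of Bcl6 and 31 times upstream of Spred1. Nkx2-1 had 9 and Sftpb 7. The 4 without an ETV5 summit in the domain had 3 (Sftpa1), 0 (Lamp3), 1 (Lyz2) and 2 (Hc). GGAA, counted on both strands, was present in all 8, from 1 copy at Hc to 6 at Lamp3. The longer ETS motif CCGGAAG, which contains GGAA, was in none of them on either strand. The ETV5 summit nearest to the Bcl6 start lay 41 bp downstream of it with a pileup of 324, and that nearest to the Spred1 start 182 bp upstream with a pileup of 161. At Nkx2-1 it lay 172 bp downstream with a pileup of 66, and at Sftpb 361 bp upstream with a pileup of 289. Sftpa1 also had a summit near its start, 155 bp upstream with a pileup of 44. That summit lies within the stretch shown but outside the domain. From the starts of Lamp3, Lyz2 and Hc the nearest summit was 6939, 19719 and 8779 bp away. Pileup is the number of sequenced fragments that overlap the summit.

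The domains were as a rule over genes. A protein-coding gene span was overlapped by 345 of 357 domains (96.6%), of which 300 overlapped 1 gene and 45 overlapped 2 or more. In all they overlapped 389 of 21627 protein-coding genes, or 1.80%, the share against which the gene lists below are read. By comparison 12354 genes (57.1%) were overlapped by an H3K4me3 peak of any length. A gene end (either its start or its finish, since the gene table gives no strand) lay inside 288 domains (80.7%, 95% interval 76.2 to 84.6%), against 79.0% of H3K4me3 peaks of 2000 to under 3500 bp and 55.02% of those under 2000 bp. The remaining 57 domains over genes held neither end of the gene span as the gene table gives it. Of these, 38 held a start listed in the RefSeq promoter table (among them Tnrc18, Errfi1 and Hc), and 18 had a gene end within 1 kb. A whole gene fitted inside 29 domains, among them the compact genes Jun, Junb, Cebpa, Foxa2, Id2 and Sftpc.

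The median domain was 4145 bp long, 76 domains reached 5000 bp and 4 exceeded 10 kb. The 4 longest lay over Irx5, a homeodomain factor of the Iroquois family (15318 bp, chr8:92351857-92367174), Nkx2-1 (12934 bp, chr12:56525502-56538435), Slc34a2, the phosphate carrier of the AT2 apical membrane (12070 bp, chr5:53047115-53059184), and Irx2 (11228 bp, chr13:72623190-72634417). They were followed by Tnrc18 (9830 bp), the pioneer factor gene Foxa1 with Ttc6 (9721 bp), Irs2, an adaptor of insulin receptor signalling (8763 bp), Rhof with Setd1b (8245 bp), Gata6, a zinc finger factor of endoderm (8215 bp), and the long noncoding RNA gene Malat1 (8191 bp). Setd1b encodes an H3K4 methyltransferase. The median H3K4me3 pileup of the 357 domains was 334 fragments, against 298.5 for peaks of 2000 to under 3500 bp and 153 for shorter peaks. Among the domains themselves, length and H3K4me3 pileup had a Spearman rho of 0.07 (n = 357, given as a description).

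The genes under the domains were grouped by lists that had been assembled with earlier results of these data known. Of 35 AT2 marker genes, 23 (65.7%) lay under a broad domain, against 1.80% of all protein-coding genes. All 35 lay under an H3K4me3 peak of some length. The 12 outside broad domains included Napsa, a surfactant-processing protease, Ctsh and Cd74. Broad domains also lay over 16 of 37 lung epithelial transcription factor genes (43.2%) and 17 of 40 genes of ERK feedback and ETS response (42.5%). For the AT1 cell, the thin gas-exchange cell that AT2 cells can give rise to, the count was 3 of 20 markers (15.0%). The exact interval of that share, 3.21 to 37.9%, lies above 1.80%. An H3K4me3 peak of some length lay over 18 of the 20 (90.0%), against 57.1% of all protein-coding genes.

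All 78 cytosolic ribosomal protein genes and all 31 proteasome genes lay under H3K4me3, yet broad domains lay over 1 ribosomal protein gene (Rpl7, whose domain also overlaps Rdh10) and 0 proteasome genes. Those are 1.28% and 0%, with exact intervals up to 6.94% and 11.2%, so neither class is shown to differ from the 1.80% of all protein-coding genes. Markers of other lung cells were counted too. The counts were 0 of 15 for ciliated cells, 0 of 15 for airway secretory cells, 0 of 12 for basal cells, 0 of 16 for mesenchymal cells and 0 of 18 for leukocytes. The exception was 1 of 16 endothelial markers, Esam, which encodes a junction adhesion molecule. Exact intervals reach 21.8, 21.8, 26.5, 20.6, 18.5 and 30.2% in that order. All contain 1.80%, so lists this short cannot check the AT2 label by broad domains. H3K4me3 of any length lay over 9, 6, 2, 0 and 3 members of the first 5 of those lists in that order, and over 5 endothelial markers.

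**Figure D1:**
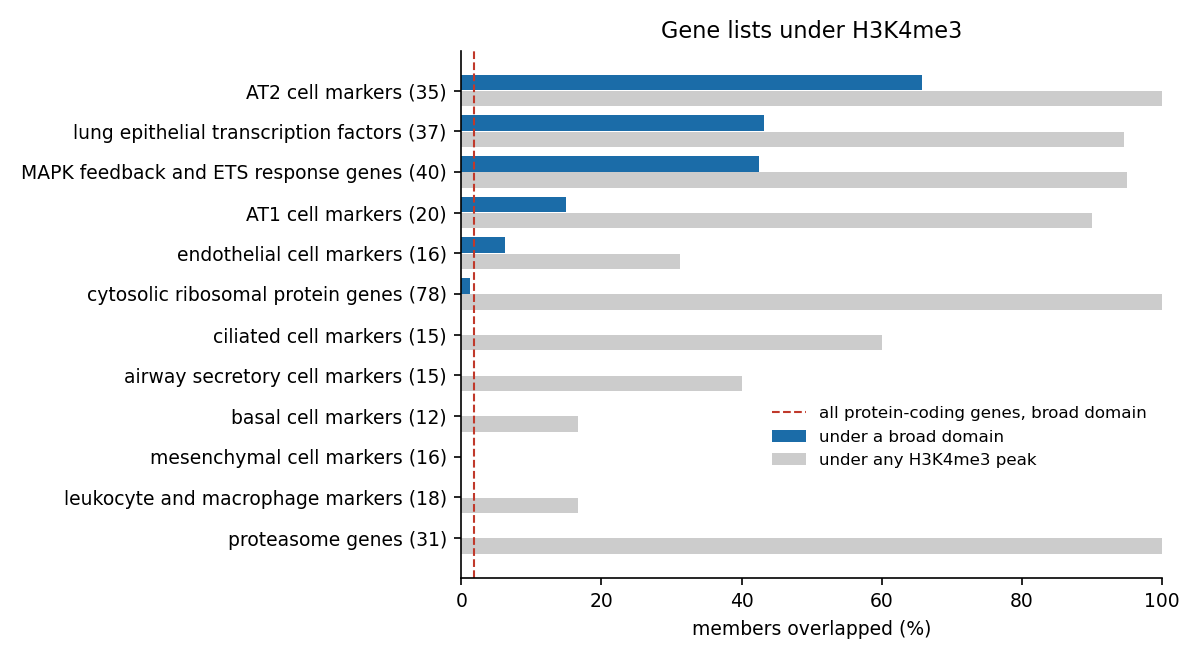
Share of each gene list overlapped by a broad H3K4me3 domain (blue) and by an H3K4me3 peak of any length (grey), in percent of the members, whose number stands in brackets; the dashed line is the 1.80% of all protein-coding genes under a broad domain. AT2 markers reach 65.7% and the lung factors and ERK feedback genes about 43%, whereas the ribosomal and proteasome genes are at 100% for any peak and at 1.28% and 0 for broad domains.

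Within transcription factor families the counts were uneven. Broad domains lay over 4 of 6 Iroquois genes (Irx1, Irx2, Irx3 and Irx5), 6 of 11 AP-1 genes, 5 of 17 Kruppel-like factor genes, 2 of 6 C/EBP genes and 6 of 44 forkhead genes. They lay over 2 of 27 ETS genes, Etv5 itself and Elf1, and over 1 each of 14 NKX, 6 GATA and 19 SOX genes. Over the 39 Hox genes and the 17 T-box genes the count was 0, and no Hox gene lay under H3K4me3 of any length. These families are small, and the exact interval for the Iroquois share runs from 22.3 to 95.7%. The intervals of the ETS (0.91 to 24.3%), NKX, GATA, SOX, Hox and T-box (0 to 19.5%) shares contain 1.80%. Those families are thus not shown to differ from all protein-coding genes.

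ETV5 was found in nearly all broad domains. At least 1 ETV5 summit lay in 339 of 357 (95.0%, exact 95% interval 92.2 to 97.0%). The share was 97.3% among H3K4me3 peaks of 2000 to under 3500 bp (96.5 to 97.9%) and 74.9% among those under 2000 bp (74.2 to 75.7%), and 78.1% of all 14765 peaks under 3500 bp had a summit. The intervals of the broad domains and of the next length class overlap, and the difference between these classes was not tested.

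The number of summits that a peak held differed between the length classes. The 357 domains held 744 ETV5 summits, a mean of 2.08 per domain (1.94 to 2.24), against 1.45 per peak of 2000 to under 3500 bp (1.39 to 1.498) and 0.831 per shorter peak (0.816 to 0.847). No summit was called in 18 domains, 1 in 120, 2 in 102, 3 in 69, 4 in 31, 5 in 13 and 6 in 4. At least 2 summits lay in 219 domains (61.3%), against 38.6% of peaks of 2000 to under 3500 bp and 7.84% of shorter ones. Per unit of length the order turned round, with 0.457 summits per kb in broad domains (0.425 to 0.491), 0.586 in the next class (0.565 to 0.608) and 0.772 in the shortest (0.758 to 0.787). Broad domains thus held more ETV5 summits each but fewer for their size.

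**Figure D2:**
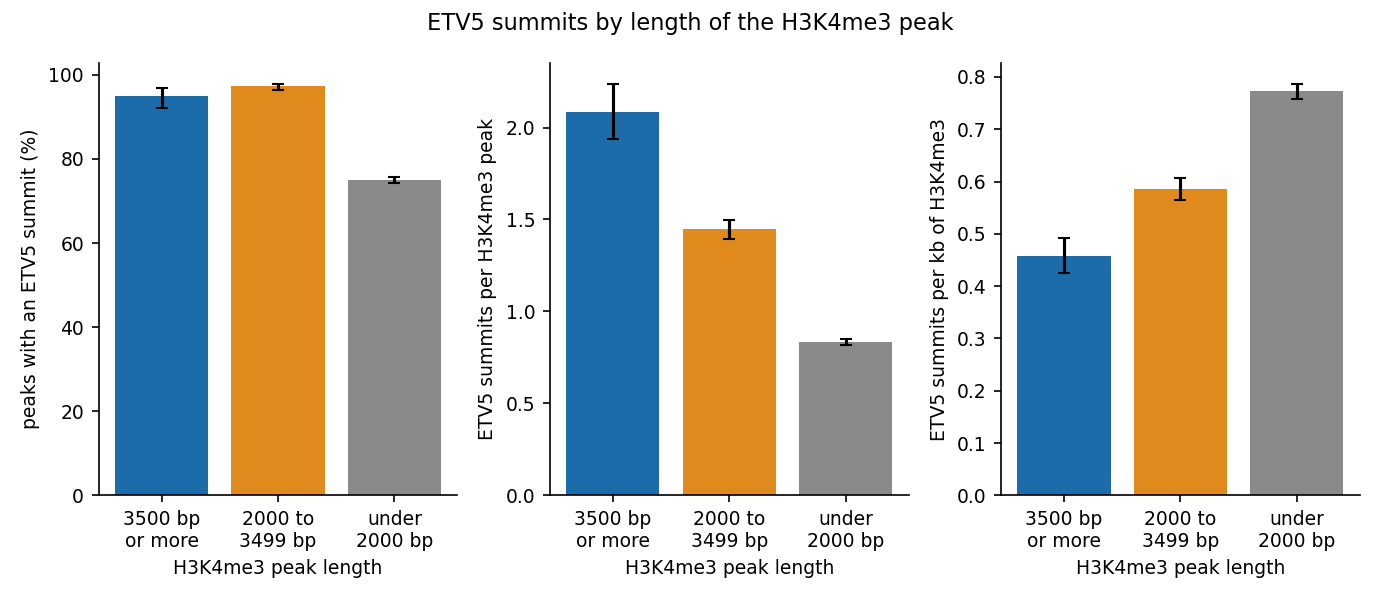
ETV5 summits by length class of the H3K4me3 peak: percent of peaks with a summit (left), summits per peak (middle) and summits per kb of H3K4me3 (right), with exact 95% intervals for counting error as bars. Broad domains (blue, n = 357) have the most summits per peak, 2.08, and the fewest per kb, 0.457.

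The 4 domains with 6 summits lay over Irx2, Zfp503, Bmp1 with Sftpc, and Epn3. At Irx2 the pileups along the domain were 10, 18, 10, 36, 17 and 39, and at Zfp503, which encodes a zinc finger co-repressor, 50, 10, 34, 18, 14 and 9. At Bmp1 and Sftpc they were 8, 29, 12, 8, 9 and 26, and at Epn3, an endocytic adaptor gene, 15, 18, 12, 16, 27 and 9. None of these 24 summits exceeded 50 fragments. The longest domain, over Irx5, had 5 summits (61, 9, 13, 13 and 13) and that over Foxa1 and Ttc6 also 5 (39, 38, 40, 13 and 18). The 12070 bp domain of Slc34a2 had a single summit with a pileup of 30. Across the 357 domains, length had a Spearman rho of 0.21 with the number of summits and of 0.02 with the highest pileup, as descriptions with no test.

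The height of the strongest ETV5 summit was a little above that of the next class. Its median was 40 fragments in broad domains (quartiles 29 to 60, n = 339), 37 in peaks of 2000 to under 3500 bp (25 to 61) and 25 in shorter peaks (16 to 43). Broad domains also held more summits from which the strongest was taken. Over all summits the median pileup was 22 in broad domains (quartiles 12 to 39). It was 27 in the next class (15 to 46) and 23 in shorter peaks (14 to 40), so summits as a whole were not taller in broad domains. The highest ETV5 pileup within H3K4me3, 381, was in a peak under 2000 bp. Within a domain the strongest summit had a median pileup of 40 and a peak width of 1459 bp, whereas the 405 other summits had a median pileup of 13 and a width of 418 bp. The order of the pileups follows from the ranking. In the 102 domains with exactly 2 summits, the medians were 39 fragments and 1405 bp for the stronger summit, and 15 fragments and 487 bp for the weaker one. The median of the strongest summit was 44 in domains with 1 summit, 39 in those with 2 or 3, 35 in those with 4, 32 in those with 5 and 34 in those with 6. Neighbouring summits in a domain stood a median of 1122 bp apart (quartiles 689 to 1623 bp), and never closer than 334 bp.

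The 6 highest pileups in broad domains were at Bcl6 (324, counting interval 290 to 361), Sftpb (289), Git2 with Ankrd13a (288), Tst with Mpst (206), Gabpb1 (206) and Ddx5 with Cep95 (202). Gabpb1 encodes the beta subunit of the ETS factor GABP, and Ddx5 an RNA helicase. The Sftpb domain was 7535 bp long and the other 5 were 3591 to 4050 bp. Git2 and Ankrd13a, and Ddx5 and Cep95, each have both starts listed in their domain.

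**Figure D3:**
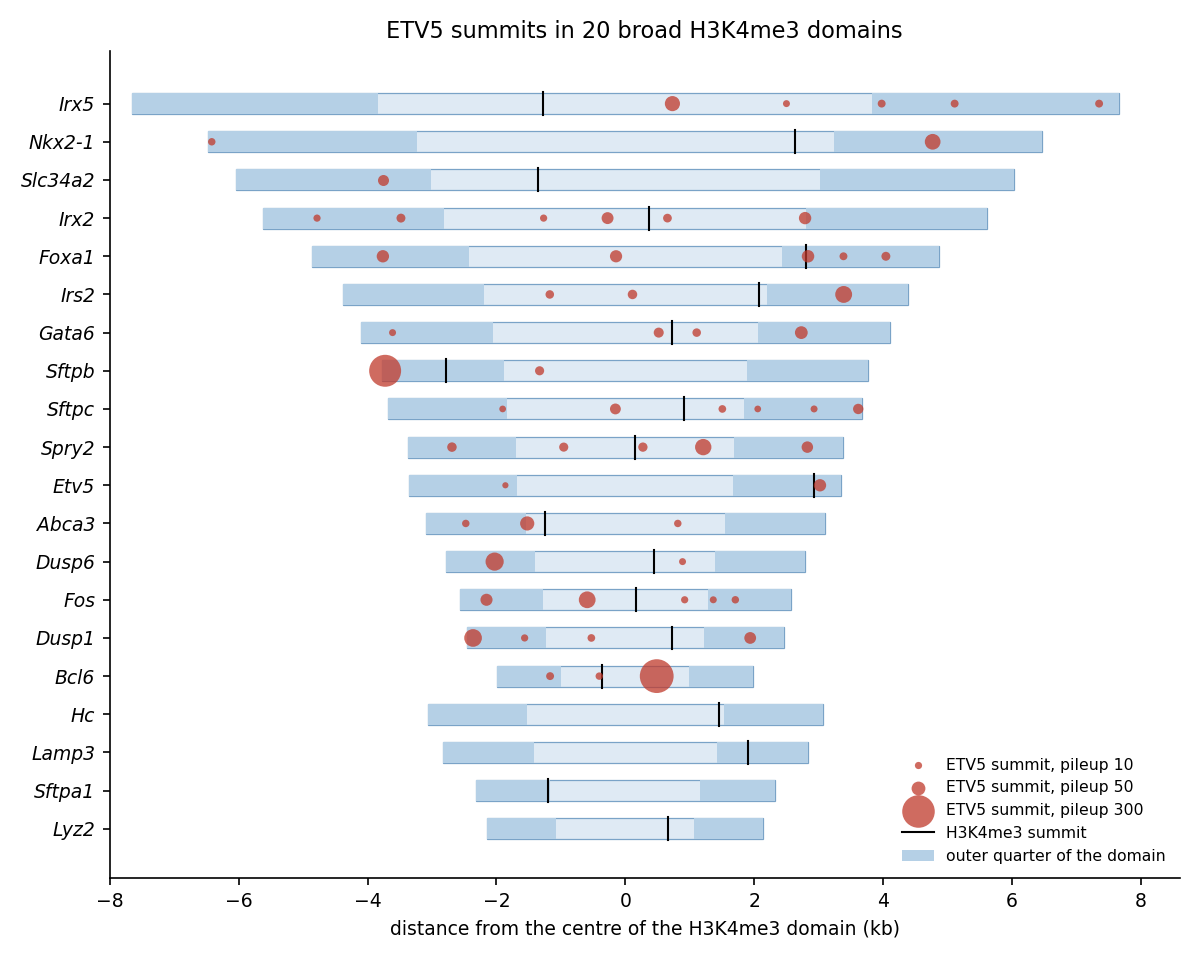
ETV5 summits (red, area by pileup) in 20 broad domains drawn to scale around the domain centre in kb, with the outer 25% of the length at each end in darker blue and the H3K4me3 summit as a black line; summits outside a domain are not drawn. Summits lie in the outer parts as well as the middle, the summit of 289 at Sftpb sits at the very end, and the domains over Hc, Lamp3, Sftpa1 and Lyz2 hold none.

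ETV5 summits were spread over the domains with no excess at the edges or the middle as a whole. With the edge taken as the outer 25% of the length at each end, 374 of 744 summits (50.3%, 46.6 to 53.9%) lay at an edge, and an even spread over length gives 50%. In peaks of 2000 to under 3500 bp 33.6% of summits lay at the edge (31.9 to 35.3%), and in shorter peaks 26.9% (26.1 to 27.8%). The intervals of the 3 classes do not overlap. Of the 339 strongest summits 52.8% lay at the edge (47.3 to 58.2%), and of the others 48.2% (43.2 to 53.1%). Edge and centre summits had median pileups of 21 and 22.

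The outermost stretch held fewer. Dividing the distance from either end to the middle into 5 equal steps, 92, 194, 157, 155 and 146 summits fell in the steps, from the outermost inwards. The outermost step thus had 12.4% of the summits and the next 26.1%, where an even spread would put 20% in each. In fixed distances, there were 0.300 summits per kb in the first 500 bp inside an end, 0.611 from 500 to 1000 bp, 0.485 from 1000 to 1500 bp and 0.521 from 1500 to 2000 bp. Outside the domains the density was 0.106 to 0.140 per kb over 2000 bp. For peaks of 2000 to under 3500 bp it was 0.0529 to 0.111 outside, with 0.322 in the first 500 bp inside and 0.809 in the next.

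**Figure D4:**
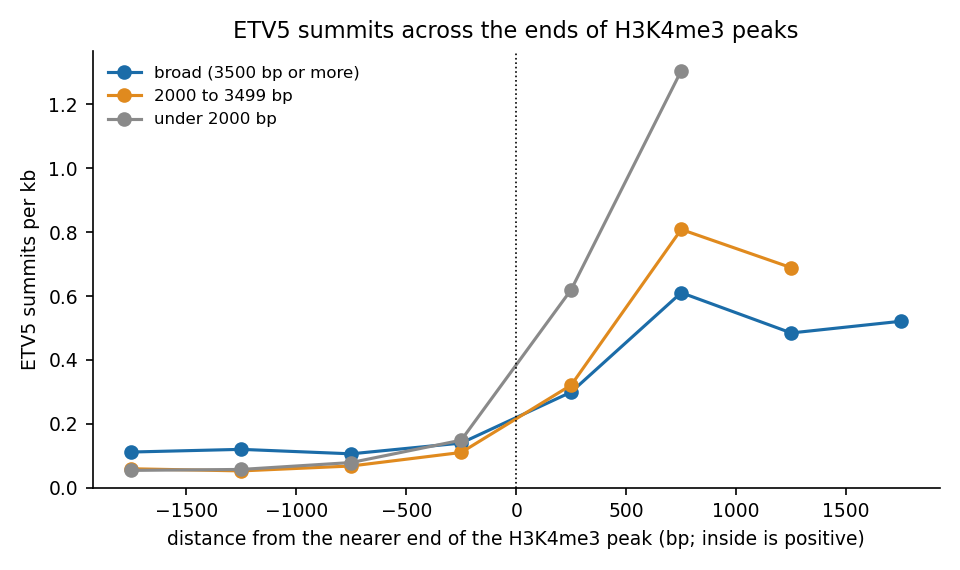
ETV5 summits per kb in steps of 500 bp outside (negative) and inside (positive) the nearer end of H3K4me3 peaks, by length class. In broad domains (blue) the density climbs to 0.611 per kb at 500 to 1000 bp and stays at about 0.5 beyond, while it climbs more steeply in the shorter classes.

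ETV5 and H3K4me3 summits were farther apart in broad domains. The median distance from an ETV5 summit to the H3K4me3 summit of its domain was 829.5 bp, against 391.5 bp in peaks of 2000 to under 3500 bp and 175 bp in shorter peaks. The H3K4me3 summit itself lay at an edge in 26.6% of broad domains, against 13.9% of the next class and 4.23% of the shortest. The domains where all ETV5 summits were farthest from the H3K4me3 summit were those over Brd2 with H2-DMa (2464 bp), Neat1 (2451 bp) and Slc34a2 (2414 bp). Brd2 encodes a bromodomain protein that binds acetylated histones, and its single summit had a pileup of 97.

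The direction of the gene could be read for 170 domains that contain exactly 1 start listed in the RefSeq promoter table. That table is incomplete and has none on chromosome 18, so these 170 stand for themselves. The H3K4me3 ran a median of 3248 bp downstream of the start (quartiles 2609 to 3848) and 1031 bp upstream (591.5 to 1556). It ran farther downstream in 146 of the 170 (85.9%), and also in 85.8% of the 974 peaks of 2000 to under 3500 bp with 1 listed start. The share that reached farther into the gene was thus close in both classes.

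The tall ETV5 summit of a domain was often at the start. Of 159 strongest summits in these domains, 74 (46.5%, 38.6 to 54.6%) lay within 250 bp of the start, a stretch that makes up 11.1% of the domain length. In peaks of 2000 to under 3500 bp it was 57.8% (54.6 to 61.0%), where that stretch makes up 20.3% of the length. Of the 180 other summits in the broad domains, 12 (6.67%) lay within 250 bp of the start, 135 farther downstream and 33 farther upstream. The 86 summits within 250 bp had a median pileup of 35.5 (26 to 49.5), and the 253 farther away 18 (11 to 34). Beyond 250 bp, 80.4% of the other summits were thus downstream, where 74.1% of the domain length beyond 250 bp also lies.

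The ends of these domains also differed. Of 176 edge summits, 106 lay at the upstream end, with a median pileup of 31.5, and 70 at the downstream end, with a median pileup of 13.5. Of the 159 strongest summits, 88 were at an edge, 70 at the upstream end and 18 at the downstream end. In these domains the edge summits thus join a tall upstream set, on the side of the start, to a low downstream set.

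**Figure D5:**
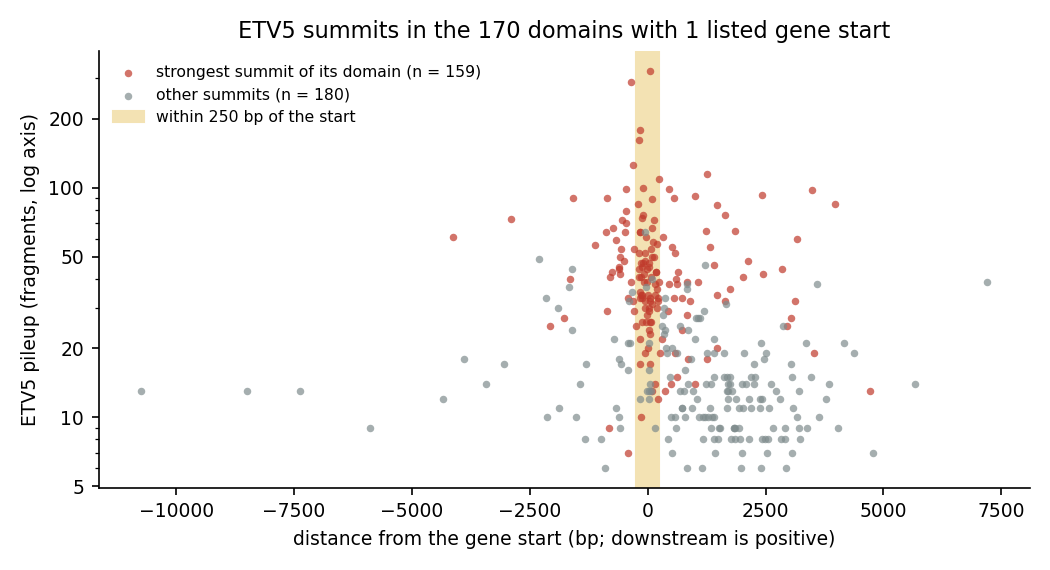
Pileup (fragments, log axis) of 339 ETV5 summits against distance from the gene start in bp (downstream positive) in 170 broad domains with 1 listed start. The strongest summit of each domain (red) gathers around the start, with 74 of 159 within 250 bp (shaded), and 12 of the 180 other summits (grey) lie there.

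Among the lung transcription factor genes, the 16 broad domains were 3798 to 15318 bp long. All 16 held ETV5, as did 95.0% of all broad domains. They had 45 summits and highest pileups of 20 to 66 per domain. The median of those highest pileups was 40, the same as over all broad domains with ETV5. Nkx2-1 had 2 summits, of 66 and 11, both at the edges. Its stronger one lay near the start and its weaker one 51 bp inside the other end. Foxa2, the partner of Foxa1 as a pioneer factor, had 1 summit of 43 in its domain (chr2:148042641-148047369). Beside that domain, a separate one of 4076 bp over the noncoding gene 9030622O22Rik (chr2:148036980-148041055) had 3 summits of 8. Gata6 had summits of 9, 24, 16 and 42.

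The 3 tallest H3K4me3 summits of this group were at Iroquois genes. H3K4me3 pileup was 460 at Irx3, 440 at Irx2, 436 at Irx1 and 407 at Irx5, and the highest ETV5 pileup was 63, 39, 33 and 61 at these genes in the same order. Cebpa, a factor of differentiated epithelium and of lipid metabolism, had a single ETV5 summit of 47. That summit lay in the centre part of its 5854 bp, 1853 bp from the nearer end. Cebpd, which shares its domain with Spidr, had 1 of 39 at an edge. Foxp1 had 1 of 40 and Foxp4 had 14, 39 and 8. Klf5 had 49 and 8, and Klf4 had 10, 13 and 27. Id2, an inhibitor of bHLH factors, had 11, 7 and 20.

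Etv5 itself lay under a domain of 6698 bp (chr16:22433084-22439781) with an H3K4me3 pileup of 395. It held an ETV5 summit of 39 close to the H3K4me3 summit, at a distance of 86 bp, and a summit of 6 near the other end. The peak at 6 is close to the lowest pileup called anywhere in the list, 5. The other ETS gene with a broad domain, Elf1, shares it with Wbp4 and had 1 summit of 44.

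The AT2 marker genes had broad domains with a lower mean number of ETV5 summits, for which no interval was computed. Their 23 domains held 37 summits, a mean of 1.61 per domain against 2.08 over all broad domains, and 26 of the 37 were at an edge. The median of the highest pileup was 27 over the 16 genes with a summit, against 40 over all broad domains, and 7 genes had none. These are descriptions of a list that includes genes also counted above (Nkx2-1, Etv5 and Cebpa).

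Surfactant genes took opposite places in this list. Sftpb had the second highest ETV5 pileup of all broad domains, 289, with its summit 41 bp inside the end of the domain (chr6:72304208-72311742), and a second of 19. The domain over Sftpc, the gene of surfactant protein C, and the neighbouring Bmp1 had 6 low summits with a maximum of 29. The domains over Sftpa1 and Sftpd, which encode the surfactant collectins, held none. At Sftpa1, however, an ETV5 peak reached into the domain and its summit of 44 lay 8 bp outside.

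Of the AT2 list, 6 genes of lipid synthesis and transport are given together, grouped after their values were seen. Each held ETV5, as did 95.0% of all broad domains, whereas the domain over Cd36, a fatty acid carrier gene outside the list, held none. Abca3, the lamellar body lipid transporter, shares a domain of 6179 bp with Abca17 and had summits of 11, 53 and 11. Fasn, fatty acid synthase, had 12, 13, 10 and 58, and Acly, which makes cytosolic acetyl-CoA, had 19 and 72. Scd1, a fatty acid desaturase, had 12 and 27, Elovl1, a fatty acid elongase whose domain also overlaps Cdc20, had 32, 14 and 8, and Lpcat1, which reacylates lysophosphatidylcholine, had 22. The strongest of these summits lay at an edge in all but the Abca3 domain.

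Of the other AT2 markers, Muc1, an apical mucin, had 4 summits of 9, 9, 9 and 13, Dram1 had 15 and 34, Ppp1r14c had 18 and Slc26a9, an anion transporter, had 12. The 3 AT1 markers with broad domains were Aqp5, a water channel (25, 24, 14, 12 and 8), Vegfa, the endothelial growth factor (13, 34 and 13), and Cldn18, a tight junction protein (10, at the very end of its 3508 bp). Both Aqp5 and Vegfa held several summits and Cldn18 held 1 weak one.

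The genes of ERK feedback and ETS response had the highest median of the 3 main lists for the strongest ETV5 summit, although the single tallest summit of those lists was that of Sftpb. All 17 broad domains held ETV5, as did 95.0% of all broad domains. The 17 had 42 summits, and the median of the strongest was 73, against 40 over all broad domains. Spred1 had a single summit of 161 in the centre part of its 3913 bp (chr2:117119641-117123553), 1248 bp from the nearer end. Spry2, an inhibitor of receptor tyrosine kinase signalling, had 21, 19, 20, 72 and 33 along its 6758 bp, and Spry1 had 30, 27, 6, 32 and 21. Errfi1, an inhibitor of the EGF receptor, had 1 of 39. The Sprouty genes thus held many moderate summits and Spred1 a single tall one.

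Of the MAP kinase phosphatase genes, Dusp6 and Dusp1 had 1 tall summit toward an end. Dusp6, which dephosphorylates ERK, had 90 and 9, and Dusp1 had 85, 10, 12 and 35 with the tallest 91 bp inside an end. Dusp4 had 27 and 50, with the 27 just 21 bp inside an end. These were 3 of 24 DUSP genes. Myc, a growth regulator, had summits of 18, 11 and 7, the lowest of the 17 domains, and also the lowest H3K4me3 pileup of them, 106.

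AP-1 genes, whose products are early targets of ERK signalling, were 5 of these 17, and Fosb, a family member outside the list, also lay under a broad domain. The tallest summit was 119 at Jun, 109 at Junb, 90 at Fosl2, 76 at Fos, 73 at the domain of Jund and Iqcn, and 35 at Fosb. Jun, Junb and Jund had a single summit each, all at an edge, whereas Fos had 5, of 37, 76, 10, 9 and 11. The median of the highest pileup over the 6 genes was 83. Other early response genes had 65 and 13 (Egr1), 16 and 77 (Ier2) and 53 (Phlda1). Of the nuclear receptors, Nr4a3 had 49, 54 and 7, and Nr4a2 had 34, 7 and 29.

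Members of the smaller families gave values in the same range. Klf13 had 1 ETV5 summit of 84, Klf9 had 52 and 9, and Klf3, which shares its domain with Gm38457, had 48. Of the forkhead genes outside the lung list, Foxo3 had 1 summit of 50 and Foxo1 had 1 of 38, both encoding factors restrained by insulin and PI3K signalling. The nuclear receptor genes Nr2f2 and Rarg had 12, 18, 44 and 24, and a single 44. Sox4 had 1 of 20 in the middle of 4821 bp. Esam, the endothelial marker, had 22, 8, 13 and 19 with an H3K4me3 pileup of 177, and the domain of Rpl7 and Rdh10 had 1 of 43 with an H3K4me3 pileup of 349.

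Broad domains seldom stood side by side. Only 2 neighbouring pairs lay within 1 kb of each other, and 10 within 50 kb. Of the close pairs, 1 was within Zfp608, where the domains of 3785 and 3680 bp had ETV5 summits of 13 and 10, and of 9 and 10. The other was the domain of Id2 and a neighbour over no gene.

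Of the 357 domains, 12 overlapped no protein-coding gene. They included those over Malat1 and Neat1, nuclear long noncoding RNA genes that are neighbours on chromosome 19. Malat1 had 1 ETV5 summit of 67 and Neat1 had 9, 9 and 103, the last 2 bp inside the end of the domain. The domain over Chaserr, a noncoding gene beside Chd2, had 19 and 33, and that over Lncpint 65 and 25.

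Of the 18 domains without an ETV5 summit, 7 lay over AT2 markers. These were Hc, Lamp3, Sftpa1, Lyz2, Cxcl15, a lung chemokine gene, Il33, an alarmin gene, and Sftpd. The others included Entpd1, Bmp5, Nedd4l, AA986860, Tinag, Kcnj15, Chd2, Cd36, Cdc42ep4 and Rbms3. They were 3500 to 6127 bp long, with a median of 4210 bp against 4142 bp for the 339 domains with a summit. Their H3K4me3 was lower, at a median pileup of 247.5 (range 156 to 315), against 338 (quartiles 289 to 379) in domains with ETV5. H3K4me3 height moved with the absence of ETV5, and its part in it was not tested.

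Absence here means that no peak was called at a q-value of 0.05 at this depth. In 6 of the 18 an ETV5 peak overlapped an end with its summit outside. Those summits lay 3 bp outside the Cxcl15 domain (pileup 10), 8 bp outside Sftpa1 (44), 28 bp outside Chd2 (44), 79 bp outside Cdc42ep4 (89), 102 bp outside Entpd1 (10) and 172 bp outside AA986860 (11). The other 12 were touched by no ETV5 peak. For 6 of those the nearest summit was over 5 kb away, namely Hc (7468 bp), Sftpd (11482 bp), Rbms3 (14875 bp), Lyz2 (19109 bp), Bmp5 (113250 bp) and Tinag (380879 bp).

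Promoter sequence was at hand for part of the domains. A listed start lay in 13 of the 18 domains without a summit (72.2%) and in 247 of the 339 with one (72.9%). Since both are under 80%, a comparison of base composition over the domains is void, and the values describe these entries only. The ratio of observed to expected CG in the 300 bp window around the start had a median of 0.258 in the 13 (range 0 to 0.727). In the 247 the median was 0.794 (quartiles 0.671 to 0.933, range 0.0598 to 1.23), so the ranges overlap. CCGGAAG, on either strand, was in 0 of the 13 windows and in 27 of the 247 (10.9%), and in 11.7% of all 21044 protein-coding windows. CGGAAG, which lies inside it, was in 1 and 57, and in 21.3% of all windows. GGAA, inside both, was in 95.7% of all windows, nearly every window.

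At the length limit, the 3 shortest domains lay over Rbms3 (3500 bp, no ETV5 summit), Hnrnpu (3501 bp, 2 summits, highest 115) and Arhgef12 (3503 bp, 1 summit of 70). The 3 longest peaks just under it lay over Yy1 (3492 bp, 2 summits, highest 71), Tcta with Rhoa (3491 bp, 1 of 52) and Prss8 (3491 bp, 3, highest 12). The groups on both sides of the limit overlap in these values.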

How the data were processed

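Peaks had been called per library by the authors with MACS2 2.1.0.20150420, per the file headers, at a q-value threshold of 0.05, keeping at most 1 tag per position, with broad calling off, so domains are single narrow-mode peaks. The aligner, not given in the sources used here, is unknown. The ETV5 and H3K4me3 lists were called against different inputs, per the file headers (27495486 and 44758677 input tags). The deposited pileup signal is the fragment count at the summit, and it is unscaled because both inputs were larger. The deposited fold enrichment ratio and the deposited −log10 q-value served only in alternatives, and the deposited −log10 p-value was not used.

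The submitters' processing notes name mm9, but the coordinates were read as GRCm38: 10713 of 21044 listed RefSeq starts of GRCm38.p6 (50.9%) lay inside an H3K4me3 peak. An ETV5 peak was counted in a domain when its summit lay inside. Genes were named by span overlap of at least 1 bp. Intervals are exact 95% intervals (Clopper-Pearson for shares, Poisson for counts) for counting error only. Placing was tested on simulated data. Values were computed with scipy 1.17.1, pandas 2.3.3 and numpy 2.4.6 in Python 3.11.15.

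The members and lists were chosen with earlier results of these data known. Named were the 10 longest domains, the 6 with most summits, the 6 with the highest pileup, the domains over list genes (up to 4 per minor list), the 12 longest without ETV5, 3 on each side of the length limit, and the 3 with the largest distance between summits. The remaining domains named (others without ETV5, of which 1 is not reported here, those over no protein-coding gene and the promoters shown) were chosen after their values were seen.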

Additional observations from a re-analysis of the deposited data

How the results depend on the processing

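Of 46 alternatives computed, 28 moved the result by less than its counting interval or, for counts, by less than 1.5 times. Summits per domain were 1.92, 2.24 and 2.70 at minimum lengths of 3000, 4000 and 5000 bp, 2.32 with peaks up to 1000 bp apart joined, 1.38 for ETV5 peaks with a −log10 q of at least 10, and 1.10 for those with a fold of at least 10. The share with ETV5 was 97.4% from 5000 bp on, 90.5% at the stricter q and 84.0% at the stricter fold. The edge share was 54.3% from 4000 bp and 55.1% from 5000 bp. It was 66.0% with each domain cut into 3 equal parts, by construction. Within 500 bp of an end it was 14.4%, and that stretch held 0.300 summits per kb, against 0.457 over whole domains. A gene end lay within 1000 bp of 85.7% of domains. From 5000 bp on, fewer domains left 13 AT2, 1 AT1, 9 lung factor and 7 ERK feedback genes. Beyond that construction the cause of these shifts was not tested. No paired analysis was possible because each antibody has 1 library. Leaving out a replicate was not possible for the same reason. The ETV5 depth limits the low end: the lowest pileup called was 5, so a summit not called is not shown to be absent.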
